A study of Mus musculus with 6 samples.

Results

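The 9 genes described here carry the Hedgehog signal from the ligand to its target genes: *Shh*, *Ptch1*, *Smo*, *Hhip*, *Gas1*, *Sufu*, *Gli1*, *Gli2* and *Gli3*. They were taken from the count table by gene symbol, 9 of 31613 genes, and all 9 were among the 16519 genes with enough counts to be tested. RNA was sequenced from mouse dental papilla cells (mDPCs), the mesenchyme of the tooth germ that gives rise to odontoblasts and dental pulp, collected at postnatal day 6. There were 3 control libraries and 3 Dmp1-Cre;Setd2fl/fl libraries, numbered 1 to 3 in the labels, and RNA of 3 biological replicates was pooled for each. The controls are labelled wild type, while the methods give them as Setd2fl/fl mice, so that both genotypes carried the floxed *Setd2* alleles on a C57BL/6J background and differed in Dmp1-Cre. *Setd2* encodes the methyltransferase that places H3K36me3, and Dmp1-Cre is active in odontoblasts, so other cells of the papilla can keep the gene. The mice listed in the methods for this collection are fewer per genotype than separate pools of 3 animals would need, so pools may share mice. The p-values then measure only the spread between libraries, which may be technical, and may be too small. The libraries held 18557647 to 19210750 counts each.

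Hedgehog ligands bind the receptor Patched on the receiving cell, which releases Smoothened, and Smoothened in the primary cilium then frees the GLI transcription factors from Suppressor of fused. *Gli1*, *Ptch1* and *Hhip* are themselves switched on by the signal, so their RNA is widely read as its output, and PTCH1 and HHIP in turn hold the ligand back. In the tooth *Shh* is made by the dental epithelium, and the adjoining papilla mesenchyme is among the cells that respond to it.

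In these libraries the ligand, its response genes and *Gli2* differed more between libraries of 1 genotype than between genotypes. *Shh*, *Gli1*, *Hhip*, *Ptch1* and *Gli2* were each highest in replicate 3 of both genotypes, *Shh* by 7.58-fold in control and 5.53-fold in Dmp1-Cre;Setd2fl/fl over the mean of replicates 1 and 2. *Smo*, *Sufu*, *Gli3* and *Gas1*, which receive or relay the signal, stayed within 1.12- to 1.44-fold over all 6 libraries. None of the 9 genes passed the study's thresholds between genotypes when all 6 libraries were compared without regard to replicate number. Among all tested genes 2.71% were called lower and 1.10% higher in that comparison, so few calls were to be had. *Shh* was higher in the Dmp1-Cre;Setd2fl/fl library of each of the 3 replicate numbers, as were *Hhip* and *Ptch1*, while *Gas1* was lower in each. *Shh* passed the thresholds once libraries were compared within their number, as did 2.05% of all tested genes upward, but its adjusted p was 0.110 in edgeR. Only the replicate 3 libraries stood apart as a pair, and the pairing of numbers 1 and 2 rests on the labels.

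The sequence just before the transcription start is shown for *Hhip* and *Gli2*, a feedback inhibitor and a transcription factor that were both high in replicate 3, and for *Smo*, which was level. Windows of 250 bases upstream of the start, from RefSeq on build GRCm38.p6, were used for 7 of the 9 genes, all but *Shh* and *Gli1*. Capitals mark CCACCC or its reverse complement GGGTGG, the core of the GLI binding consensus GACCACCCA. The *Hhip* window is chr8:80058009-80058258 on the minus strand, the *Gli2* window is chr1:119053620-119053869 on the minus strand, and the *Smo* window is chr6:29735247-29735496 on the plus strand.
Hhip: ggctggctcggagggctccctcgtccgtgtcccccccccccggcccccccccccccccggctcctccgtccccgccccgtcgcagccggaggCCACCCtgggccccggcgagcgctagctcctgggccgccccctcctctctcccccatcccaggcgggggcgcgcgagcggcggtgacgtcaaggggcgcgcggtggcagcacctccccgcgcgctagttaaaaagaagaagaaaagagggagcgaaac
Gli2: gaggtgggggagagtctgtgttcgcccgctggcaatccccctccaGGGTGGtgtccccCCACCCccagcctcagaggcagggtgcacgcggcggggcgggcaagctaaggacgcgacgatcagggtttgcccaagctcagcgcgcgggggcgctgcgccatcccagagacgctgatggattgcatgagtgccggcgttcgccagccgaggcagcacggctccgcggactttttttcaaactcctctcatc
Smo: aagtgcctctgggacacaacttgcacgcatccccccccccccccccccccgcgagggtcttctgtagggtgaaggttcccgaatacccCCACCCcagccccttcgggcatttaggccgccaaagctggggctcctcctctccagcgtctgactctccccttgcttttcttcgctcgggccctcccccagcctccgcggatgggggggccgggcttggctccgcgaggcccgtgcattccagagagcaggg
The *Hhip* window held 1 match to the core, the *Gli2* window 2 and the *Smo* window 1, so that genes with and without a high replicate 3 carried it. The core was also found in the *Gli3* window, 4 of the 7 in all, against 28.1% of 32851 windows of the same length. The 3 windows shown are rich in G and C, at 67.2% in *Gli2*, 68.4% in *Smo* and 76% in *Hhip*. The RefSeq windows of *Ptch1*, with 0 matches, and of *Gli3* lie inside the longer gene spans of the deposited table. The whole consensus, searched on both strands, was in 0 of the 7 windows and in 0.225% of all windows. A match describes these letters in this window and is not evidence of GLI binding.

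Levels of different genes were set side by side only per kilobase of exon (RPKM, from counts scaled to library size by TMM and the GENCODE vM39 length of all exons of a gene together). In control libraries *Smo* stood first at 25.5 ± 3.07 RPKM (SD, n = 3), followed by *Gas1* at 18.6 ± 2.27, *Gli1* at 18.3 ± 11.4 and *Ptch1* at 12.7 ± 5.75 RPKM. *Smo* lay above *Gas1* in every control library, whereas *Gas1* and *Gli1*, and likewise *Gli1* and *Ptch1*, overlapped. The control range of *Gli1*, 11.0 to 31.5 RPKM, also overlapped that of *Smo*, 22.8 to 28.8 RPKM. *Gli3* at 7.96 ± 0.939 RPKM and *Sufu* at 6.12 ± 0.299 RPKM lay apart from each other, *Sufu* overlapped *Gli2*, and the lowest levels were those of *Gli2* at 4.30 ± 1.87, *Shh* at 2.11 ± 2.51 and *Hhip* at 1.43 ± 1.01 RPKM. The range of *Shh* overlapped those of *Gli2* and *Hhip*, which lay apart from each other. In Dmp1-Cre;Setd2fl/fl libraries the order was the same except that *Gli1*, at 20.2 ± 15.0 RPKM, stood before *Gas1* at 15.4 ± 0.745 RPKM, with overlapping ranges. There too *Gli1*, at 8.68 to 37.2 RPKM, overlapped *Smo*, at 23.1 to 26.5 RPKM.

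**Figure D1:**
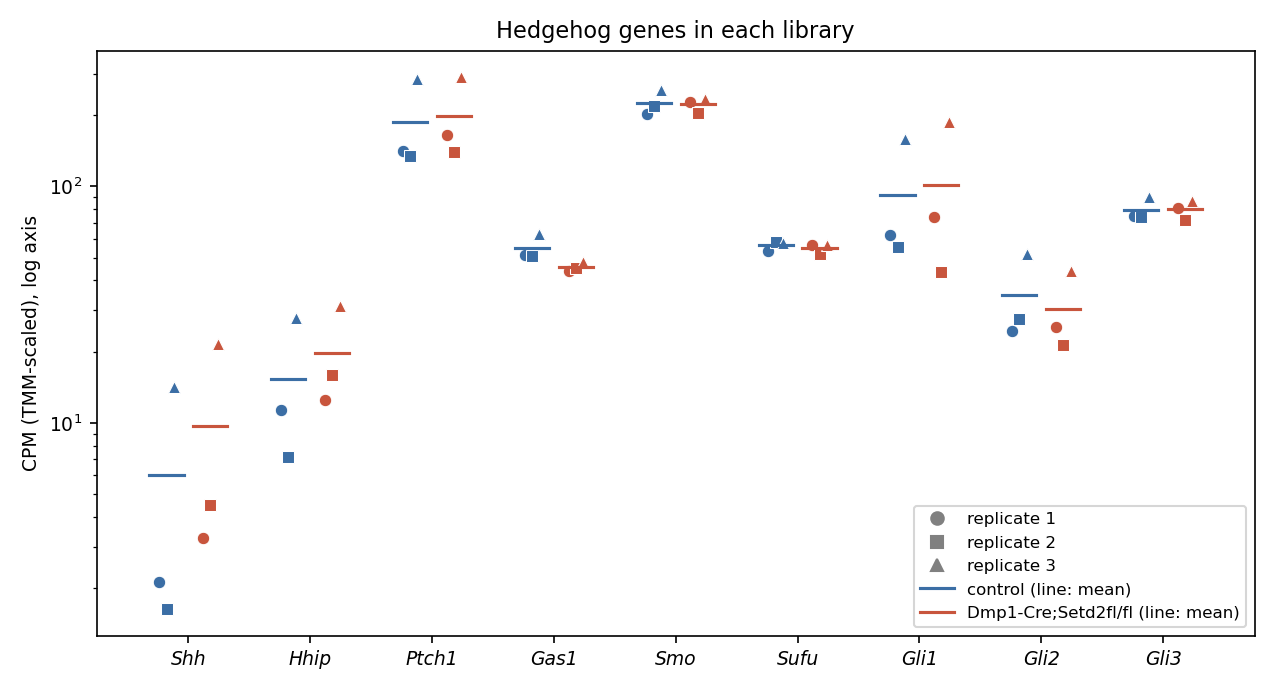
Level of each of the 9 Hedgehog genes in every library, as CPM (counts scaled to library size by TMM) on a log axis, with a point per library (shape: replicate number) and a line at the mean of 3 libraries of a genotype. For *Shh*, *Hhip*, *Ptch1*, *Gli1* and *Gli2* the replicate 3 triangles stand above the other libraries of both genotypes, with *Shh* at 14.2 and 21.4 CPM, while the points of *Smo*, *Sufu* and *Gli3* lie close together.

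*Shh* (ENSMUSG00000002633, chromosome 5, 28456815 to 28467256), the ligand, was at 2.12, 1.63 and 14.2 CPM in control replicates 1, 2 and 3, from 40, 31 and 251 counts. In Dmp1-Cre;Setd2fl/fl replicates 1, 2 and 3 it was at 3.25, 4.51 and 21.4 CPM, from 68, 85 and 395 counts. Replicate 3 was the high library of each genotype, so the groups overlapped, although each Dmp1-Cre;Setd2fl/fl library exceeded the control library of its own number. The means were 5.99 ± 7.14 CPM in control and 9.74 ± 10.2 CPM in Dmp1-Cre;Setd2fl/fl libraries (SD, n = 3 libraries each). The log2 fold change was 0.70 (standard error, SE, 1.04, 95% confidence interval -1.80 to 3.20, adjusted p = 0.877 by edgeR's quasi-likelihood test), and the interval leaves room for a large difference in either direction.

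Within replicate numbers the log2 difference of *Shh* was 0.59, 1.41 and 0.59 for numbers 1, 2 and 3. Fitted with the replicate number as a block, *Shh* differed by 0.84 on the log2 scale (SE 0.22, 95% confidence interval 0.35 to 1.33, adjusted p = 0.110 in edgeR). That passed the study's thresholds, which ask for an unadjusted p under 0.05 and for 0.58 or more on the log2 scale in either direction, and makes *Shh* the 1 gene of the 9 called higher with the block, against 2.05% of all tested genes called higher and 4.37% called lower. By the stricter rule of an adjusted p under 0.05, the block called 0 of the 9, against 0.975% of all tested genes. Leaving replicate 3 out of both genotypes gave 1.05 (SE 0.28, adjusted p = 0.0594 in edgeR) on 2 libraries per genotype. The value rests on which libraries are in: without control replicate 3 alone it was 2.36, and without Dmp1-Cre;Setd2fl/fl replicate 3 alone it was -0.62.

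The other Hedgehog ligands were barely detected. *Ihh*, the ligand of the growth plate, was at 0.265, 0.421 and 0.454 CPM in control replicates and at 0.143, 0.0530 and 0.217 CPM in Dmp1-Cre;Setd2fl/fl replicates, and *Dhh*, the ligand of Schwann cells, was at 0.383 to 0.583 CPM over all 6 libraries. Neither had enough counts to be tested.

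Among the receptors, *Ptch1* (ENSMUSG00000021466, chromosome 13, 63508328 to 63573598), which binds the ligand and inhibits SMO in its absence, was at 141, 134 and 284 CPM in control replicates 1, 2 and 3. In Dmp1-Cre;Setd2fl/fl replicates it was at 165, 139.7 and 289 CPM. Both replicate 3 libraries were about equally high, and the other 4 lay within a narrow range. The means of 186 ± 84.7 and 198 ± 80.0 CPM (SD, n = 3 each) differed by a log2 fold change of 0.08 (SE 0.38, 95% confidence interval -0.83 to 1.00, adjusted p = 0.965 in edgeR). With the block the interval narrowed to -0.14 to 0.34. That leaves out a change of 1.5-fold in either direction only if the pairing by number holds, and the interval may be too narrow if pools share mice.

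*Hhip* (ENSMUSG00000064325, chromosome 8, 79965851 to 80058006) encodes a membrane protein that binds Hedgehog ligands and takes them away from PTCH1. It was at 11.3, 7.16 and 27.7 CPM in control replicates 1, 2 and 3 and at 12.4, 16.0 and 31.1 CPM in Dmp1-Cre;Setd2fl/fl replicates. Like *Shh* and *Ptch1* it was higher in the Dmp1-Cre;Setd2fl/fl library of each number. Its log2 differences were 0.14, 1.15 and 0.17, so that most of the difference lay in replicate 2, and those of *Ptch1* were 0.22, 0.06 and 0.02. The log2 fold change was 0.37 (SE 0.56, adjusted p = 0.881 in edgeR), and 0.47 with the block (95% confidence interval -0.02 to 0.95). Without replicate 3 of both genotypes it was 0.63 (95% confidence interval 0.11 to 1.14, adjusted p = 0.134 in edgeR). In that comparison *Hhip* and *Shh* were the 2 of 9 genes called higher and none was called lower, against 4.49% higher and 7.55% lower among 16708 genes, and 0 of the 9 passed an adjusted p under 0.05, against 6.81%.

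*Gas1* (ENSMUSG00000052957, chromosome 13, 60174405 to 60177365), a membrane-anchored co-receptor that helps SHH reach PTCH1, was the only one of the 9 genes whose genotypes did not overlap in CPM, against 15.2% of all tested genes. It was at 51.3, 50.8 and 62.7 CPM in control replicates and at 43.7, 45.1 and 48.0 CPM in Dmp1-Cre;Setd2fl/fl replicates. Each Dmp1-Cre;Setd2fl/fl library lay below the lowest control library. The means of 54.9 ± 6.72 and 45.6 ± 2.21 CPM (SD, n = 3 each) gave a log2 fold change of -0.27 (SE 0.12, 95% confidence interval -0.55 to 0.01, adjusted p = 0.665 in edgeR). With the block it was -0.26 (95% confidence interval -0.49 to -0.04, adjusted p = 0.234 in edgeR), which is below the size the study required.

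*Smo* (ENSMUSG00000001761, chromosome 6, 29735503 to 29761365), the transducer that PTCH1 holds inactive, was at 202, 219 and 255 CPM in control replicates and at 228, 204 and 234 CPM in Dmp1-Cre;Setd2fl/fl replicates. *Sufu* (ENSMUSG00000025231, chromosome 19, 46396896 to 46488804), which retains GLI proteins in the cytoplasm, was at 53.4, 58.4 and 57.9 CPM in control and at 56.5, 52.0 and 56.4 CPM in Dmp1-Cre;Setd2fl/fl replicates. Both genes were level across the 6 libraries, and replicate 3 of *Sufu* did not stand apart in either genotype. The log2 fold changes were -0.02 for *Smo* (95% confidence interval -0.32 to 0.28) and -0.04 for *Sufu* (95% confidence interval -0.27 to 0.19). For both genes a change as large as the study's threshold of 0.58 lay outside the interval.

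*Gli1* (ENSMUSG00000025407, chromosome 10, 127329882 to 127341974), the activator that the signal itself induces, was at 62.1, 55.4 and 158 CPM in control replicates 1, 2 and 3. In Dmp1-Cre;Setd2fl/fl replicates it was at 73.8, 43.5 and 187 CPM. Its lowest level was thus in Dmp1-Cre;Setd2fl/fl replicate 2, a library in which *Shh* and *Hhip* were higher than in either of control replicates 1 and 2. The log2 fold change was 0.14 (SE 0.62, 95% confidence interval -1.35 to 1.64, adjusted p = 0.963 in edgeR). With the block it was 0.05 (95% confidence interval -0.25 to 0.35), and without replicate 3 of both genotypes it was 0.01 (95% confidence interval -0.50 to 0.52). *Arhgap9*, at 8.52 CPM on average, overlaps *Gli1* on the other strand, and reads in the shared stretch could not be assigned by strand.

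*Gli2* (ENSMUSG00000048402, chromosome 1, 118834132 to 119053619), the main activator before *Gli1* is induced, was at 24.5, 27.5 and 52.0 CPM in control replicates and at 25.5, 21.4 and 43.8 CPM in Dmp1-Cre;Setd2fl/fl replicates. It shared the high replicate 3 with *Gli1*, and its log2 fold change of -0.20 (SE 0.37, adjusted p = 0.906 in edgeR) was well within the spread between libraries. *Gli3* (ENSMUSG00000021318, chromosome 13, 15463235 to 15730026), which is cut to a repressor when no ligand is present, was at 74.6, 73.9 and 90.5 CPM in control replicates and at 81.3, 71.7 and 86.7 CPM in Dmp1-Cre;Setd2fl/fl replicates. Its log2 fold change was 0.00 (SE 0.13, 95% confidence interval -0.30 to 0.31), and its replicate 3 exceeded the mean of the others by at most 1.22-fold.

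**Figure D2:**
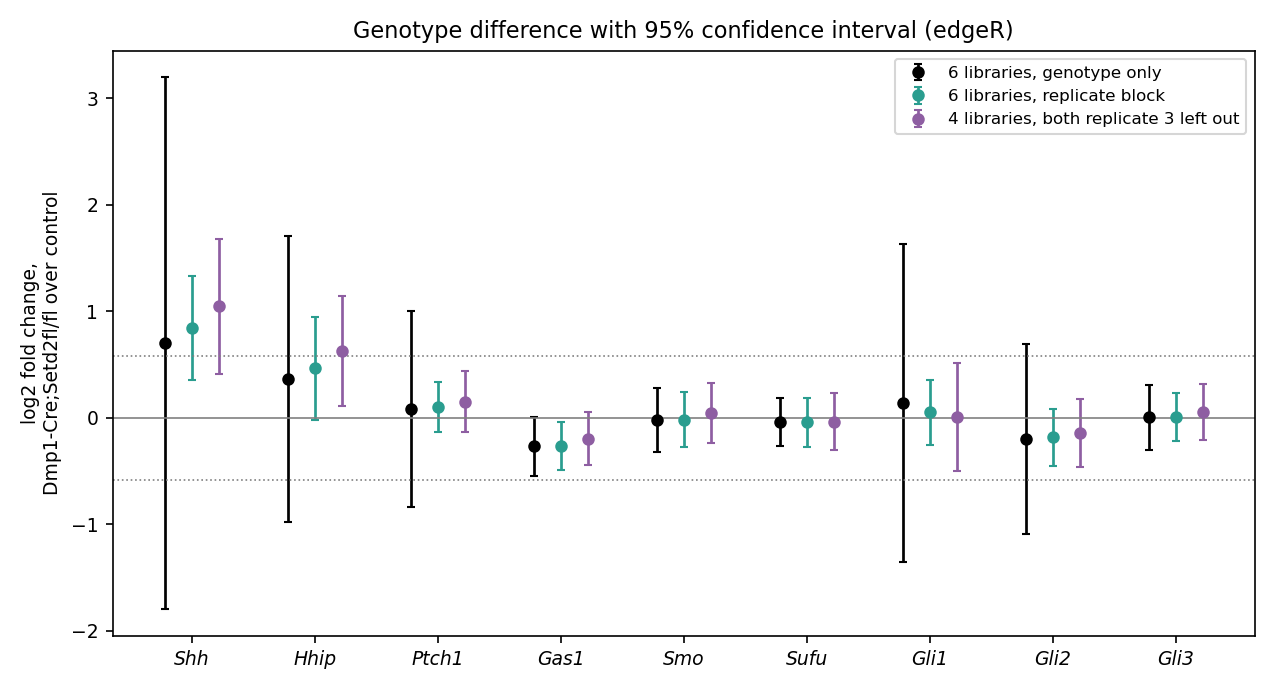
Log2 fold change of each gene, Dmp1-Cre;Setd2fl/fl over control, with its 95% confidence interval in 3 edgeR comparisons: all 6 libraries, all 6 libraries with the replicate number as a block, and 4 libraries without replicate 3. Dotted lines mark a log2 fold change of 0.58 in either direction. The block shortens the interval of *Shh* from -1.80 to 3.20 to 0.35 to 1.33, while *Smo*, *Sufu* and *Gli3* keep narrow intervals around 0 in all 3.

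In the comparison of all 6 libraries without the block, 0 of the 9 genes passed the study's thresholds downward and 0 upward, against 2.71% lower and 1.10% higher among all 16519 tested genes. None of the 9 had an unadjusted p under 0.05, against 7.58% of all genes. An adjusted p under 0.05 was reached in edgeR by 0 of the 9 and 0% of all genes, and DESeq2 and limma voom called 0 of the 9 as well. The median log2 fold change of the 9 genes was 0.00, beside 0.02 over all tested genes.

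The spread between libraries of the same genotype set the 9 genes in 2 sets. The within-genotype SD of log2 CPM was 1.55 for *Shh*, 0.95 for *Gli1*, 0.85 for *Hhip*, 0.58 for *Ptch1* and 0.56 for *Gli2*, against a median of 0.24 over all tested genes. It was 0.15 for *Gli3*, 0.14 for *Smo*, 0.13 for *Gas1* and 0.07 for *Sufu*. *Shh* varied more than 99.2% of tested genes, *Gli1* more than 96.1% and *Hhip* more than 94.8%, and *Sufu* more than only 3.89%. The set that varied more held the ligand, *Gli2* and *Gli1*, *Hhip* and *Ptch1*, which the pathway switches on. The set that varied little held *Gli3*, *Smo*, *Gas1* and *Sufu*. The split was drawn after the values were seen and does not follow role throughout, as *Ptch1* also encodes the receptor. It was not tested.

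**Figure D3:**
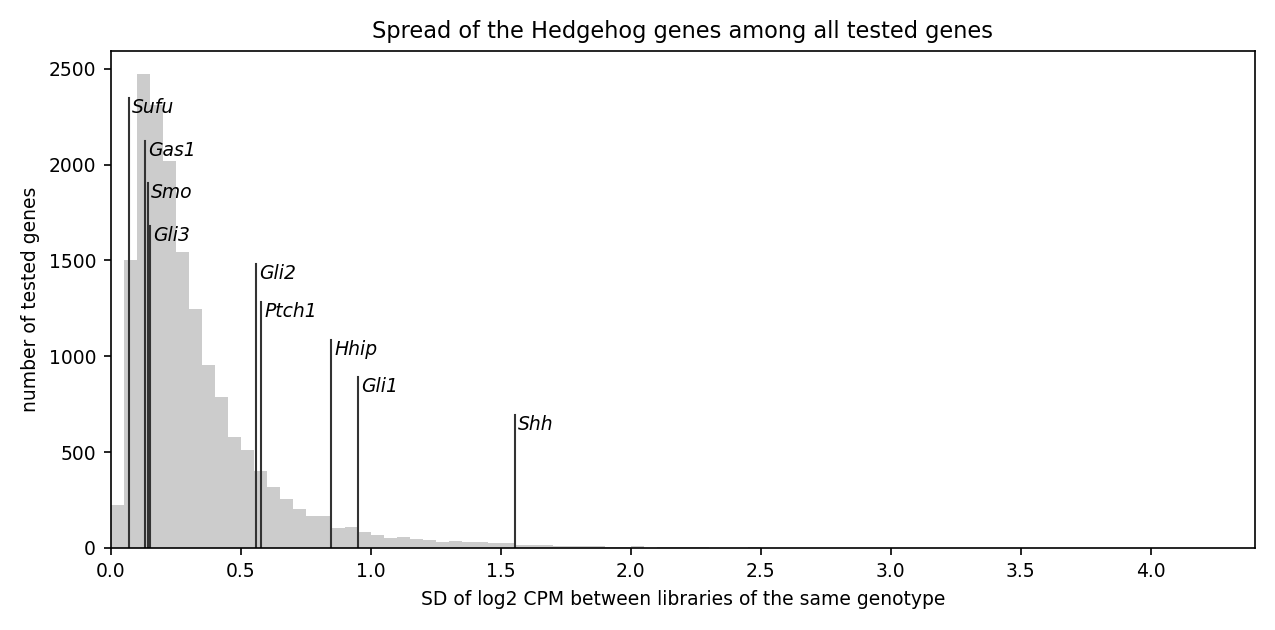
Number of tested genes (y axis) by the SD of log2 CPM between libraries of the same genotype (x axis), over 16519 genes, with a line at each of the 9 Hedgehog genes (line heights serve only the labels). *Sufu*, *Gas1*, *Smo* and *Gli3* lie at 0.07 to 0.15, below the median of 0.24, and *Gli2*, *Ptch1*, *Hhip*, *Gli1* and *Shh* lie at 0.56 to 1.55.

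Replicate 3 accounted for that spread in both genotypes. *Gli1* in replicate 3 was 2.69-fold its mean in replicates 1 and 2 in control and 3.18-fold in Dmp1-Cre;Setd2fl/fl libraries. The same ratio was 3.00 and 2.19 for *Hhip*, 2.06 and 1.90 for *Ptch1* and 2.00 and 1.87 for *Gli2*. It was 1.22 and 1.13 for *Gli3*, 1.21 and 1.08 for *Smo*, 1.23 and 1.08 for *Gas1* and 1.04 and 1.04 for *Sufu*. Replicate 3 was the highest library of both genotypes for 8 of the 9 genes, all but *Sufu*, against 29.7% of all tested genes. These ratios come from 1 library per genotype and carry no test.

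Markers of the dental epithelium, the source of *Shh* in the tooth, were also highest in replicate 3. The summed level of 17 epithelial markers, none of which was at 0 in all libraries, was 7889, 3144 and 31276 CPM in control replicates 1, 2 and 3 and 7406, 2491 and 51182 CPM in Dmp1-Cre;Setd2fl/fl replicates. *Amelx*, the main enamel protein, made up much of that sum, at 3193, 1251 and 16218 CPM in control and 3044, 823 and 26408 CPM in Dmp1-Cre;Setd2fl/fl replicates. Cells labelled as dental papilla thus came with epithelial RNA in all 6 libraries. Of the 16 epithelial markers tested, 12 were highest in replicate 3 of both genotypes, against 29.7% of all tested genes. Between genotypes 0 were called, against 2.71% lower and 1.10% higher. Without both replicate 3 libraries, the comparison in which *Shh* and *Hhip* were called higher, 4 of the 16 were called lower, against 7.55% of all genes. They were *Epcam* at -2.20, *Mmp20* at -3.81, *Klk4* at -4.54 and *Amtn* at -1.74 on the log2 scale. All 4 had an adjusted p under 0.05 in edgeR, against 6.81% of all genes. *Amelx* at -0.19, *Krt5* at 0.24, *Krt14* at 0.10 and *Krt17* at 0.34 were not called there. *Klk4* did not share the high replicate 3 in control, at 91.5, 90.4 and 89.8 CPM, and was at 4.64, 3.08 and 53.8 CPM in Dmp1-Cre;Setd2fl/fl replicates. *Mmp20* was at 255, 215 and 303 CPM and at 22.8, 10.2 and 234 CPM. Which cells made these 4 transcripts was not tested. In bulk RNA, more cells of a type and more RNA per cell cannot be told apart.

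Basal keratins followed the same order as *Shh* only in part. The sum of *Krt5*, *Krt14* and *Krt17*, keratins of basal epithelium set apart after their values were seen, was 473, 336 and 1268 CPM in control replicates and 465, 462 and 1824 CPM in Dmp1-Cre;Setd2fl/fl replicates. Per 1000 CPM of these keratins, *Shh* was at 4.49, 4.86 and 11.2 CPM in control and at 7.00, 9.76 and 11.8 CPM in Dmp1-Cre;Setd2fl/fl replicates. Per 1000 CPM of all 17 epithelial markers, *Shh* was at 0.269, 0.519 and 0.455 CPM in control and at 0.439, 1.81 and 0.419 CPM in Dmp1-Cre;Setd2fl/fl replicates. The order of the genotypes in replicate 3 thus turned with the markers used, and replicate 3 was not the highest library on the second scale. The part of the epithelial RNA in the levels of *Shh* and of the response genes was not tested.

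**Figure D4:**
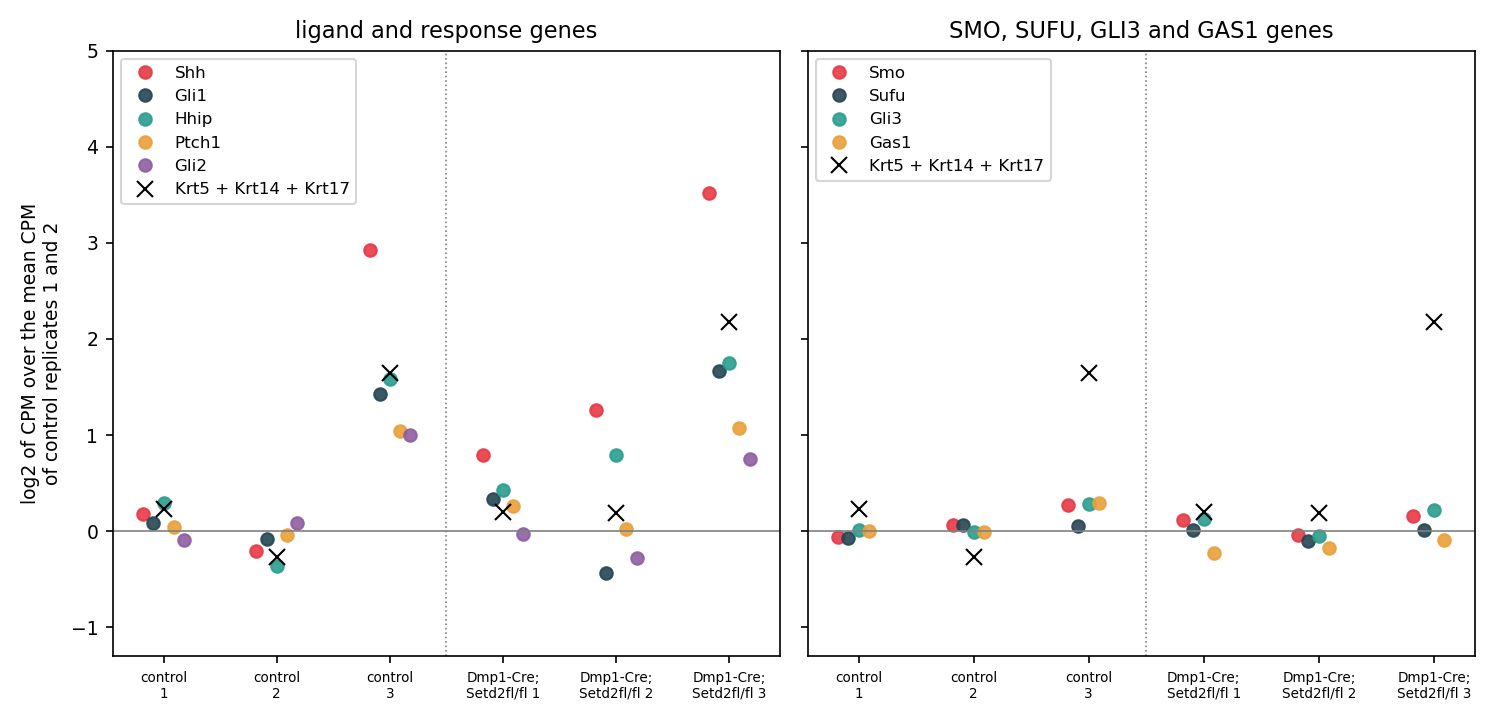
Log2 of the CPM in each library over the mean CPM of control replicates 1 and 2, for *Shh*, the response genes *Gli1*, *Hhip* and *Ptch1*, and *Gli2* (left) and for *Smo*, *Sufu*, *Gli3* and *Gas1* (right), with the summed keratins *Krt5*, *Krt14* and *Krt17* as crosses in both. In replicate 3 of both genotypes the points of the left panel and the crosses are high, with *Shh* at 14.2 and 21.4 CPM, and those of the right panel stay near 0.

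Markers of the other cell types the tissue could hold differed less from library to library than those of the epithelium, or in another order. Their counts stand beside 2.71% of all tested genes called lower, 1.10% called higher and 29.7% highest in replicate 3 of both genotypes. Odontoblast markers summed to 99714 to 117042 CPM in control and 9270 to 57944 CPM in Dmp1-Cre;Setd2fl/fl libraries, with 12 of 15 called lower, and the highest Dmp1-Cre;Setd2fl/fl value was in replicate 3. Papilla mesenchyme markers held 5220 to 6330 CPM in control and 5195 to 6024 CPM in Dmp1-Cre;Setd2fl/fl libraries, with 1 of 15 called lower. The markers of Schwann cells and axons, a site of *Dhh* and of *Shh*, summed to only 108 to 165 CPM over the 6 libraries, with 1 of 9 called higher. Endothelial and mural markers summed to 910 to 1491 CPM with 0 of 12 called, and 9 of the 12 were highest in replicate 3 of both genotypes. Markers of follicle and bone summed to 522 to 859 CPM with 1 of 10 called lower, and macrophage markers to 730 to 1351 CPM with 0 of 10 called. Neutrophil markers ran the other way, from 4.59 CPM in control replicate 3 to 141 CPM in Dmp1-Cre;Setd2fl/fl replicate 2, with 2 of 6 called higher. Erythroid markers summed to 152 to 430 CPM with 0 of 5 called, and muscle markers to 1.06 to 1.82 CPM with 0 of 1 called. *Setd2* itself, counted over the whole gene and all cells, was at 95.5 ± 3.14 CPM in control and 98.9 ± 3.07 CPM in Dmp1-Cre;Setd2fl/fl libraries (SD, n = 3 each), which does not check the genotype labels.

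The genes whose log2 CPM ran most like *Gli1* over the 6 libraries, among 15045 genes with a mean of at least 1 CPM, were *Lmnb1*, *Acvr1b*, *Col7a1*, *Ntn1* and *Camsap3*, with Pearson correlations of 0.996 to 0.998. *Ptch1* came at rank 146 with 0.977 and the target gene *Foxf2* at rank 231 with 0.970. For *Shh* the nearest genes were *Tdg*, *Uck2*, *Sertad1*, *Mrpl52* and *Fgfr2*, with correlations of 0.995 to 0.997, and *Hhip* came at rank 65 with 0.979. *Gli1* and *Shh* themselves correlated at 0.872. With 6 libraries, of which both replicate 3 libraries stand apart, and all genes measured in the same libraries, these values are a description.

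The rest of the pathway was followed in 82 further genes listed by role, of which 74 were tested. At the study's thresholds edgeR called 0 of the 74, against 2.71% lower and 1.10% higher among all tested genes. An adjusted p under 0.05 in edgeR was reached by 0 of the 74 and by 0% of all tested genes, so it does not set the pathway apart. Log2 fold changes of the 74 had a median of 0.01, with 34 below and 40 above 0. DESeq2 also called 0 of the 74 at the study's thresholds, against 769 calls over all genes. By limma voom 4 were called, against 1545 over all genes. An unadjusted p under 0.05 was reached by 6 of the 74, against 7.58% of all tested genes. The genotypes did not overlap for 15 of the 74, 8 lower and 7 higher in Dmp1-Cre;Setd2fl/fl libraries, against 15.2% of all tested genes.

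Genes that lipidate, release or carry the ligand came first in the order of the pathway, with 6 of 8 tested. *Scube3*, a secreted protein that carries lipid-modified SHH, was at 366, 382 and 442 CPM in control replicates and at 266, 241 and 351 CPM in Dmp1-Cre;Setd2fl/fl replicates. Every Dmp1-Cre;Setd2fl/fl library was below every control library, at a log2 fold change of -0.47 (SE 0.17, adjusted p = 0.626 in edgeR), short of the 0.58 the study required. Without replicate 3 of both genotypes, where 6.81% of all genes had an adjusted p under 0.05, *Scube3* was lower by this test. It was at -0.55 (adjusted p = 0.0363 in edgeR), a size still under 0.58. *Scube2*, of the same family, was at 0.902, 0.737 and 1.59 CPM in control and at 0.287, 0.106 and 1.19 CPM in Dmp1-Cre;Setd2fl/fl replicates. Its log2 fold change of -1.03 did not pass (adjusted p = 0.737 in edgeR), and it was the 1 further pathway gene called with the replicate block, at -1.19 (adjusted p = 0.230 in edgeR). Without both replicate 3 libraries it was also called, at -1.99 (adjusted p = 0.0643 in edgeR), as were 7.55% of all genes downward. These *Scube2* values lie near the floor and rest on few reads. *Disp1*, the exporter of lipid-modified ligand, was at 17.9 to 29.0 CPM, with a log2 fold change of -0.12 (SE 0.21).

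Of 7 genes for reception, 6 were tested and 0 were called. The co-receptor *Cdon* was at 15.1, 13.6 and 17.1 CPM in control and at 9.04, 6.47 and 20.0 CPM in Dmp1-Cre;Setd2fl/fl replicates, with a log2 fold change of -0.37 (SE 0.40). Without replicate 3 of both genotypes *Cdon* was lower by this test, at -0.88 (adjusted p = 0.0299 in edgeR), and the cell-surface proteoglycan gene *Gpc4* was higher, at 0.72 (adjusted p = 0.0483 in edgeR). An adjusted p under 0.05 was thus reached by 2 of the 6 reception genes, against 6.81% of all genes. Over all the further pathway genes it was reached by 4 of the 75 tested in that comparison. The related co-receptor *Boc* was at 24.7 to 30.1 CPM in all 6 libraries.

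All 26 genes of the primary cilium and of SMO traffic were tested, and 0 were called. *Mks1*, of the ciliary transition zone, was at 23.8, 22.6 and 23.2 CPM in control and at 17.3, 13.1 and 19.7 CPM in Dmp1-Cre;Setd2fl/fl replicates. Its genotypes did not overlap, at a log2 fold change of -0.47 (SE 0.17, adjusted p = 0.626 in edgeR). Without both replicate 3 libraries 2 of the 26 were called lower, against 7.55% of all genes. They were *Mks1* at -0.60 (adjusted p = 0.0584 in edgeR) and *Ift172*, of the intraflagellar transport machinery, at -0.61 (adjusted p = 0.0348 in edgeR). An adjusted p under 0.05 was reached there by 1 of the 26, against 6.81% of all genes. Of the 26, 6 were highest in replicate 3 of both genotypes, against 29.7% of all tested genes. Another 10 were lowest there, against 4576 of the 16519 tested genes. For most cilium genes, as for most tested genes, replicate 3 was thus not the high library of both genotypes.

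Among kinases, ubiquitin ligase subunits and other regulators of GLI proteins, 17 of 19 were tested and 0 were called, while the genotypes did not overlap for 8 of the 17, 5 higher and 3 lower in Dmp1-Cre;Setd2fl/fl libraries, against 15.2% of all tested genes. An unadjusted p under 0.05 in edgeR was reached by 4 of the 17, all of them among those 8, against 7.58% of all tested genes. *Btrc*, the ligase subunit that marks GLI proteins for processing or decay, was at 85.1, 84.0 and 73.5 CPM in control and at 68.6, 55.7 and 61.0 CPM in Dmp1-Cre;Setd2fl/fl replicates, with a log2 fold change of -0.39 (SE 0.12, adjusted p = 0.625 in edgeR). The kinase gene *Ulk3* was at 30.6 to 34.1 CPM in control and 18.7 to 26.3 CPM in Dmp1-Cre;Setd2fl/fl libraries, with a log2 fold change of -0.45 (SE 0.16). *Cul3*, which encodes the scaffold of a ligase that degrades full-length GLI proteins, and *Spopl*, the paralog of its adaptor gene *Spop*, lay the other way. *Cul3* was at 67.9 to 73.0 CPM in control and 81.8 to 108 CPM in Dmp1-Cre;Setd2fl/fl libraries, with a log2 fold change of 0.39 (SE 0.13). *Spopl* was at 12.3 to 15.1 CPM in control and 16.1 to 19.8 CPM in Dmp1-Cre;Setd2fl/fl libraries, with a log2 fold change of 0.42 (SE 0.15). *Spop* itself differed by 0.02 on the log2 scale (SE 0.11).

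Target genes known from other tissues, 20 of 23 of them tested, gave 0 calls between genotypes and 0 without overlap. Of the 20, 12 were highest in replicate 3 of both genotypes, against 29.7% of all tested genes. *Foxf2*, a forkhead factor gene of mesenchyme under Hedgehog control, was at 19.4, 21.0 and 43.3 CPM in control and at 24.6, 20.7 and 48.3 CPM in Dmp1-Cre;Setd2fl/fl replicates. The related gene *Foxf1* was level, at 84.3 to 101 CPM. *Bmp4*, which encodes a growth factor of the dental mesenchyme, was at 65.0, 65.6 and 113 CPM in control and at 66.1, 60.0 and 113 CPM in Dmp1-Cre;Setd2fl/fl replicates. The cell cycle gene *Ccnd2* ranged over 271 to 296 CPM without a high replicate 3. Replicate 3 was thus the high library for *Gli1* and for part of the listed targets.

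**Figure D5:**
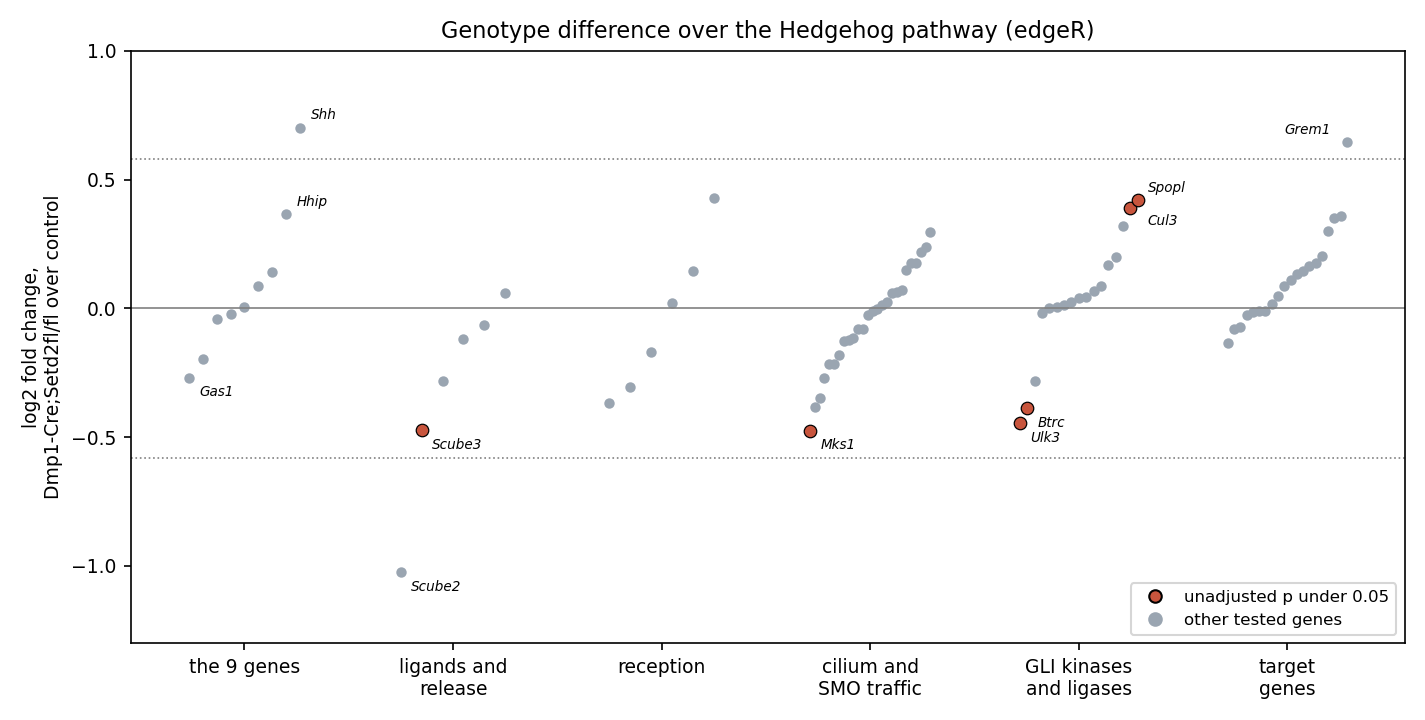
Log2 fold change, Dmp1-Cre;Setd2fl/fl over control, of the tested genes of each Hedgehog list, a point per gene in order of its value, with dotted lines at 0.58 in either direction and filled red points for an unadjusted p under 0.05 (edgeR, 6 libraries). The 6 red points, *Scube3*, *Mks1*, *Btrc*, *Ulk3*, *Cul3* and *Spopl*, all lie between the dotted lines, and *Shh*, *Scube2* and *Grem1* lie beyond them without passing the test.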

How the data were processed

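Paired 150-base reads were aligned by the authors with HISAT2, and the deposited values are whole-number counts per gene from HTSeq, taken without regard to strand and not normalized. The table also carries the authors' own DESeq2 results (mean signal per gene, fold ratio, its log2 value and p-values), none of which was used. The submitters' processing notes further list Bowtie2 and GRCm39. Deposited gene positions share a start or end with RefSeq GRCm38.p6 for 47.4% of 24514 genes and with GENCODE GRCm39 for 1.30% of 30436 genes, and are printed as deposited.

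Genotypes were compared on these counts in edgeR 4.0.16 (R 4.3.3) by the robust quasi-likelihood F test, after filterByExpr at a minimum count of 10 and TMM scaling, with Benjamini-Hochberg adjustment over 16519 genes. The code was checked on simulated data. CPM uses TMM-scaled library sizes, and log2 CPM a prior count of 2. At 18557647 to 19210750 counts per library, counting error is small beside the spread between libraries (coefficient of variation 25.3%) for well-counted genes. It is not small for genes near the floor, such as *Scube2*, at 0.106 CPM in Dmp1-Cre;Setd2fl/fl replicate 2. Alternatives tried were DESeq2 1.42.0, voom with quality weights in limma 3.58.1, RLE factors, sizes computed without the 100 most abundant genes, no filter, a filter of 10 counts in every library, a replicate block, and libraries left out singly or both replicate 3 together.

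Replicate numbers were taken from the labels. Across genes, deviations from the mean of the genotype correlated between libraries of the same number at 0.453 (number 1), 0.465 (number 2) and 0.663 (number 3). Control replicate 2 correlated as well with Dmp1-Cre;Setd2fl/fl replicate 1 (0.455), and only the replicate 3 pair stood apart. The replicate block treats same-numbered libraries as pairs, which for numbers 1 and 2 rests on the labels alone. The 9 genes, the lists and the tests were chosen with earlier results of these data known. Named genes are the 9, *Setd2*, pathway genes with an unadjusted p under 0.05 whose genotypes do not overlap, marker genes a result turns on, and the 5 genes most correlated with *Gli1* and with *Shh*. *Arhgap9*, *Ihh*, *Dhh*, *Scube2*, *Disp1*, *Cdon*, *Boc*, *Gpc4*, *Spop*, *Foxf1*, *Foxf2*, *Bmp4*, *Ccnd2*, *Grem1*, *Ift172*, *Epcam*, *Mmp20*, *Klk4*, *Amtn* and the 3 keratins were added after their values were seen. Not every listed gene is reported here, and a gene in more than 1 list was counted once in totals.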

Additional observations from a re-analysis of the deposited data

How the results depend on the processing

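The count of the 9 Hedgehog genes called at the study's thresholds was 0 with all 6 libraries, 1 with the replicate block (*Shh*) and 2 without both replicate 3 libraries (*Shh* and *Hhip*), and ran from 0 to 2 as single libraries were left out. The fit with the replicate block changed the call of no other of the 9. At an adjusted p under 0.05 or under 0.1 it was 0, and so it was at 0.05 in every alternative tried. The 82 further pathway genes gave 0 calls with all libraries, 4 by limma voom, 1 with the replicate block, 6 without both replicate 3 libraries and 0 to 5 with single libraries left out. All tested genes gave 629 calls, 1545 by limma voom, 1061 with the replicate block, 2011 without both replicate 3 libraries and 365 to 1838 with single libraries left out. The direction turned for *Gli3* with library sizes without the 100 highest genes (-0.0026) and with the strict filter (-0.0025), and for *Smo* by limma voom (0.065) and without both replicate 3 libraries (0.046), all on the log2 scale and none past a threshold.

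With single libraries left out, the log2 fold change ran from -0.62 to 2.36 for *Shh*, -0.29 to 0.52 for *Ptch1*, -0.65 to 0.78 for *Gli1*, -0.56 to 0.21 for *Gli2*, -0.060 to 0.10 for *Gli3*, -0.096 to 0.077 for *Smo*, -0.12 to 1.10 for *Hhip*, -0.083 to -0.003 for *Sufu* and -0.32 to -0.16 for *Gas1*. Each extreme of *Shh*, *Hhip*, *Gli1* and *Ptch1* came from leaving out 1 of the replicate 3 libraries, which removes the high library of 1 genotype alone: control replicate 3 for the highest value and Dmp1-Cre;Setd2fl/fl replicate 3 for the lowest. Leaving out control replicate 1 or 2 also turned the sign of *Ptch1* (-0.08 and -0.11) and of *Gli1* (-0.08 and -0.12). With 3 libraries per genotype and 1 of them far from the others, the 95% confidence interval without the block ran from -1.80 to 3.20 for *Shh*, -1.35 to 1.64 for *Gli1* and -0.98 to 1.71 for *Hhip*. With the block it ran from 0.35 to 1.33, -0.25 to 0.35 and -0.02 to 0.95.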
